A study of Mus musculus with 27 samples.

Results

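Npy, Pyy, Ppy and Ghrl encode 4 small peptide hormones, and their rows were taken by gene symbol from the 3 tables of read counts, which together list 61346 distinct gene symbols. Neuropeptide Y (Npy), peptide YY (Pyy) and pancreatic polypeptide (Ppy) form 1 family of peptides that act on shared G protein-coupled receptors. Ghrelin (Ghrl) belongs to a separate family and is grouped with them here because all 4 are made by endocrine cells of the pancreas. Pancreatic polypeptide marks the PP (gamma) cell of the islet, ghrelin marks the epsilon cell, which is mainly an embryonic cell in the mouse, and peptide YY is made by several early and adult islet cell types. Neuropeptide Y is best known as a transmitter of sympathetic and central neurons, and it is also made by immature beta cells. Nkx2.2 is a homeodomain transcription factor needed for the formation and identity of beta cells, and mice without it are known to have ghrelin cells in place of beta cells.

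The study profiled mutants of the SD domain of Nkx2.2 in mouse, and 24 of its 27 samples are the RNA libraries used here. Whole pancreata at the embryonic stage E15.5 gave 3 control and 4 SD mutant (SDmut) libraries, the controls being wildtype per the design text. Islets at 8 weeks gave 2 control libraries, also wildtype, and 3 with an SD mutation specific to beta cells (betaSDmut), and islets at 4 weeks gave 2 controls and 2 libraries labelled betaKO, which the deposited description calls a knockout of Nkx2.2 specific to beta cells. The labels give no strain, no sex and no driver that restricts a mutation to beta cells, and no genotype for the 4-week controls, so alleles that groups share are not known here. Motor neuron progenitors were derived from embryonic stem cells to day 4, from a line with a doxycycline-inducible, FLAG-tagged wildtype Nkx2.2 (iNkx2.2) left without induction (pMN, 3 libraries), from the same line with doxycycline at 1 µg/ml for about 16 h (iNkx2.2, 3 libraries) and from a line with the SD mutant copy, induced in the same way (iSDmut, 2 libraries). Each inducible line is a single line, and the labels do not say whether libraries of a group come from separate animals or cultures, so the p-values measure the spread between these libraries. Nkx2.2 was also mapped by chromatin immunoprecipitation and sequencing (ChIP-seq) in MIN6, a mouse beta cell line.

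Total counts per library were 38447596 to 41840638 at E15.5, 12398041 to 32385406 in islets and 17757991 to 46840701 in progenitors. In CPM, read counts scaled to a common library size with TMM factors, Nkx2-2 itself lay at 81.8 to 104 in betaSDmut islets against 88.4 and 102 in their controls, and at 93.1 and 64.6 CPM in the libraries labelled betaKO against 102 and 75.8 (log2 fold change -0.18, SE 0.24, adjusted p 0.779 in edgeR's quasi-likelihood test). The gene-level count thus does not check the knockout label, and which part of the gene is deleted is not given in the labels. In progenitors Nkx2-2 was at 345 to 385 CPM with iNkx2.2 and 246 and 247 with iSDmut, against 5.21 to 11.4 in pMN. All 14 acinar and all 11 beta cell markers of the lists used were detected in each pancreas and islet library. Skeletal muscle markers summed to 4860 CPM in E15.5 control 3 and 5590 in SDmut 2, against 12.6 to 68.5 in the other 5 embryonic libraries. Sympathetic and peripheral neuron markers summed to 460 CPM in E15.5 control 2 and 166 in SDmut 2, against 56.1 to 70.6 in the rest.

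On the GRCm38 build, Npy lies on the forward strand of chromosome 6 at chr6:49822710-49829507. Pyy (chr11:102106676-102107832) and Ppy (chr11:102099930-102101319) are neighbours on the reverse strand of chromosome 11, with 5356 bases between them. Ghrl (chr6:113716119-113719880, reverse strand) is overlapped in part by 2 forward-strand annotations, Gm26982 and Gm44033, and because the use of strand in counting is not given in the sources used here, reads from them cannot be told apart from Ghrl reads. The other 3 genes overlap no annotated gene. The 250 bases before a RefSeq start site of each gene are shown because the 4 genes are compared with one another below and because Nkx2.2 was mapped near them. They were read from RefSeq (GRCm38.p6), are written 5′ to 3′ on the strand of the gene, and carry in capitals each AAGTG, the core of sites bound by NK2 homeodomain proteins, or its complement CACTT.
Npy promoter, chr6:49822460-49822709, forward strand: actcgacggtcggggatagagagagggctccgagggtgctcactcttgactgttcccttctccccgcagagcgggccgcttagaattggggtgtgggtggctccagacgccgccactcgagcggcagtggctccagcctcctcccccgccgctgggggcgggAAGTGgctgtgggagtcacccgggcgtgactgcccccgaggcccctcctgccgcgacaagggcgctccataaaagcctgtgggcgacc
Pyy promoter, chr11:102107833-102108082, reverse strand: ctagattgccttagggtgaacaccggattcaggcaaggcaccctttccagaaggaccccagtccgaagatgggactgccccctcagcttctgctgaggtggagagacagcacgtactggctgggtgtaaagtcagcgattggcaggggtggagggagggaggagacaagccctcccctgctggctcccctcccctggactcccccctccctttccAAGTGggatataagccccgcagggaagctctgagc
Ppy promoter, chr11:102101320-102101569, reverse strand: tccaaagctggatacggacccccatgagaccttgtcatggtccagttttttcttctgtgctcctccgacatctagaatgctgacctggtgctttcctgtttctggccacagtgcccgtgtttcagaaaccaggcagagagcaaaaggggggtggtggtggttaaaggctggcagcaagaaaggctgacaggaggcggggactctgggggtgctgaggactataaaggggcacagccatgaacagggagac
Ghrl promoter, chr6:113717693-113717942, reverse strand: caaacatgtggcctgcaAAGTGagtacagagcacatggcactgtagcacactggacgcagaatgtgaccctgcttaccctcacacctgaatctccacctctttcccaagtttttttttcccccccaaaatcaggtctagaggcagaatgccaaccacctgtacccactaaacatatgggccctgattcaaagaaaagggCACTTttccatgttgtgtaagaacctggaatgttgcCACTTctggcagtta
The Npy and Pyy windows each hold 1 copy of the core and the Ppy window holds 0. RefSeq lists 4 start sites for Ghrl. The window shown is the only one of them with copies of the core, 3 in all, and was picked with that known. It lies inside the annotated gene and not before its outer start at 113719880, from which the distances of ChIP-seq sites are counted. The windows of the other 3 start sites hold 0 copies. Of all 32851 RefSeq promoter windows of the same 250 bases, 40.7% hold at least 1 copy on either strand, so a copy in such a window is common.

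In MIN6 cells the authors' final set of 6473 Nkx2.2 sites, given by them in log2 CPM, held 1 site upstream of the Pyy and Ppy pair and 2 sites on the Npy side. The site at chr11:102123381 lay 15549 bases upstream of the Pyy start and 22062 bases upstream of the Ppy start, outside any gene. Its height was 8.68 and 8.79 log2 CPM in the 2 replicates, rank 269 of 6473 by mean height. The authors' deposited table joins this site to Pyy and does not join it to Ppy. Of the Npy sites, the one at chr6:49826553 fell in an intron of Npy, 3843 bases after the start, with 6.51 and 6.89 log2 CPM (rank 3690). The other, at chr6:49904265, lay 81555 bases downstream between genes, with 7.42 and 7.76 log2 CPM (rank 1209), and is the one that the authors' deposited table joins to Npy. For Ghrl the only final site within 100000 bases of the start was at chr6:113799435, 79555 bases upstream in an exon within the Atp2b2 locus, and the authors' deposited table does not join it to Ghrl. A joined site is not rare, since 26% of the 9971 genes in the authors' separate deposited table of 3 islet groups have one. The input library was not compared with these sites here.

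The 151 bases around the 3 sites nearest to the Npy and Pyy genes follow, on the forward strand of GRCm38, with the same core in capitals where it occurs.
Site upstream of Pyy and Ppy, chr11:102123306-102123456: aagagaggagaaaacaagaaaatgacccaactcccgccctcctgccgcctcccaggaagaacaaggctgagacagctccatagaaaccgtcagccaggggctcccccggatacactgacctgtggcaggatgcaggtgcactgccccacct
Site in the Npy intron, chr6:49826478-49826628: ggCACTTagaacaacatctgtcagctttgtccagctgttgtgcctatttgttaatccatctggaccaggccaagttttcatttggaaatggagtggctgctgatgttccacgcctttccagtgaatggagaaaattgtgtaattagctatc
Site downstream of Npy, chr6:49904190-49904340: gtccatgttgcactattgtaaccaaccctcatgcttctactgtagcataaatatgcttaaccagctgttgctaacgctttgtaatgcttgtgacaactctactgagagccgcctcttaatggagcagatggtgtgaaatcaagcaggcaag
Only the window in the Npy intron holds the core, as 1 CACTT lying 71 bases from the called position. The other windows do not hold these letters on either strand. Across all 6473 final sites, 32.9% of windows of 151 bases hold it.

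**Figure D1:**
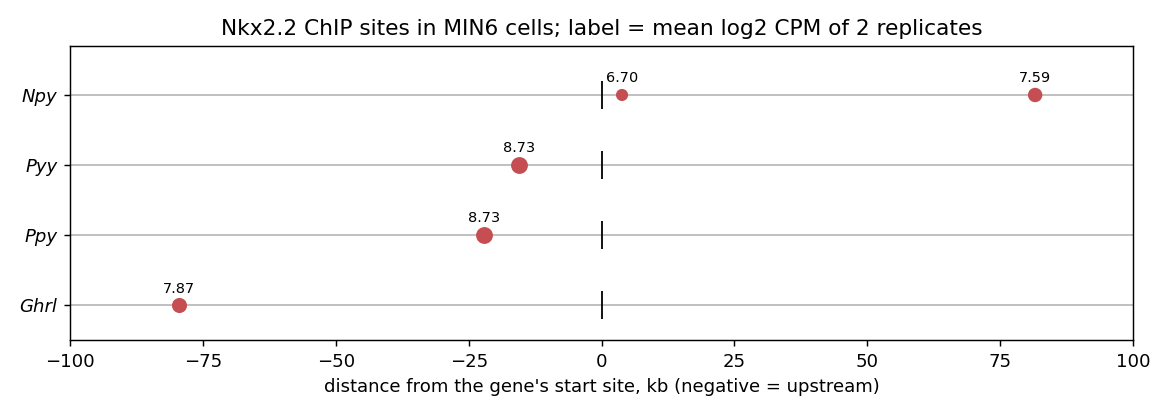
Final Nkx2.2 ChIP-seq sites in MIN6 cells within 100000 bases of each start site. The horizontal axis is the distance from the start site in kb with upstream negative, the black tick is the start site, and each red point is a site labelled with its mean log2 CPM over 2 replicates. The highest of the sites is the one upstream of Pyy, which is also plotted for its neighbour Ppy.

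In the E15.5 pancreas, Npy was lower and Ghrl higher in every SD mutant than in every control, while Pyy and Ppy overlapped. Npy was at 7.72, 25.5 and 2.77 CPM in controls 1 to 3 and 0.49, 1.73, 0.441 and 0.687 in mutants 1 to 4. The lowest control was above the highest mutant, and the controls spread over a wider range than the mutants. The edgeR log2 fold change was -3.84 (SE 0.83, unadjusted p 0.00202), a fold of 14.3 lower, and did not pass Benjamini-Hochberg adjustment over all genes (adjusted p 1). DESeq2 gave the same size, -3.85, and called it (adjusted p 0.000204), and the authors' deposited table, also from DESeq2, gives -3.37 with an adjusted p of 0.000135. Of 18723 genes tested, edgeR called 1, which is 0.00534%, and none of the 4 members was called. DESeq2 called 25 of 18463 genes (0.135%), Npy among them.

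The library with the highest Npy, control 2, was also the one with the most neuron transcripts. Its Dbh, the enzyme that makes noradrenaline in sympathetic neurons, was at 49.7 CPM, and its Stmn2, a marker of growing axons, at 159 CPM. In controls 1 and 3 Dbh was at 0.121 and 0.803 CPM, in mutants 1, 3 and 4 at 0.155 to 1.13, and in mutant 2, which had the highest Npy of the mutants, at 9.63. Th, another of the 8 neuron markers, ranged from 1.04 to 29.4 CPM in controls and from 5.7 to 8.61 in mutants. Within the 5 libraries without raised neuron markers, Npy was at 7.72 and 2.77 CPM in controls and 0.441 to 0.687 in mutants. Their summed neuron markers were at 56.1 and 56.6 CPM in controls against 58.5 to 70.6 in mutants. The mean log2 CPM of the 8 markers was 1.86 and 2.03 in controls 1 and 3 and 1.96, 2.58 and 2.61 in mutants 1, 3 and 4. Without control 2 and mutant 2 the log2 fold change was -3.28 (DESeq2 adjusted p 0.000124, edgeR adjusted p 1). Without control 2 alone it was -2.65 (edgeR adjusted p 1), and the DESeq2 call was lost (-2.66, adjusted p 0.161). Leaving out mutant 2 alone gave -4.48. These exclusions were chosen after the data were seen, apart from those of 1 library in edgeR. The part of neuron transcripts in the full difference was not tested beyond these values.

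Ghrl was at 45.1, 21.8 and 18 CPM in controls and 73.3, 47.8, 105 and 61.8 CPM in mutants. Mutant 2 and control 1 lay closest across the groups, and the other values were further apart. The log2 fold change was 1.34 (SE 0.39, unadjusted p 0.00951, a fold of 2.53), with an adjusted p of 1 in edgeR and 0.197 in DESeq2. The authors' deposited table gives Ghrl a log2 value of 0.22 and an adjusted p of 0.214, so none of these analyses called it. Its log2 values for Ppy (-0.02) and Pyy (-0.00) are also nearer to 0 than those fitted here, and whether they were shrunken is not given in the sources used here. Mboat4, the enzyme that attaches the fatty acid ghrelin needs for activity, was at 1.3 to 3.04 CPM in controls and 4.85 to 10.6 in mutants. Its groups did not overlap, its log2 fold change was 1.95 (SE 0.42), and DESeq2 called it (adjusted p 0.00321) where edgeR did not (adjusted p 1). Ghsr, the ghrelin receptor, was at 0 to 0.0483 CPM in all 7 libraries and was not tested.

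Ppy was at 21.1, 10.4 and 6.97 CPM in controls and 5.47, 3.55, 8.97 and 4.12 CPM in mutants. Mutant 3 lay above control 3, so the groups overlapped, and the log2 fold change was -1.22 (SE 0.45, unadjusted p 0.0285, adjusted p 1 in edgeR). It was -0.66 without control 1, which had the highest value. Pyy was at 216, 127 and 92.7 CPM in controls and 91.3, 70.6, 147 and 105 CPM in mutants. Its groups overlapped widely (log2 fold change -0.49, SE 0.33, unadjusted p 0.177), and without control 1, the highest library, the value was -0.09. In all, 3 of the 4 members had an unadjusted edgeR p under 0.05, against 2.54% of all genes tested, and 2 of the 4 had groups that did not overlap, against 3.57% of all genes tested. Control and mutant titles share some numbers, whose meaning the labels do not give. With that number as a block the unadjusted p of Ppy was 0.116, so that 2 of the 4 members and 219 of 18723 genes had one under 0.05.

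**Figure D2:**
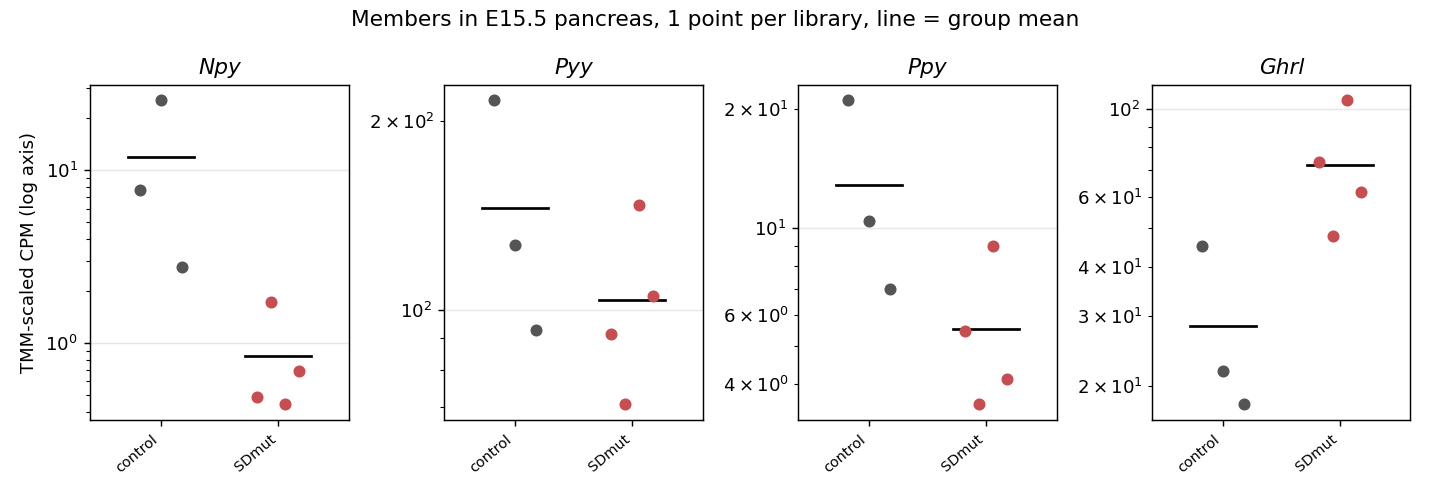
TMM-scaled CPM (log axis) of the 4 genes in E15.5 pancreas, with 3 control and 4 SDmut libraries as points and the group mean as a line. Npy control libraries sit at 2.77 to 25.5 and mutants at 0.441 to 1.73, Ghrl runs the other way, and Pyy and Ppy overlap.

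Compared per length of exon, Pyy was the most abundant of the 4 in every E15.5 library, at 147 to 343 CPM per kb in controls and 112 to 233 in mutants. In mutants Ghrl came next at 44.3 to 96.9 CPM per kb, above Ppy at 7.1 to 17.9 and Npy at 0.78 to 3.05. In controls the levels of Ghrl (16.7 to 41.8), Ppy (13.9 to 42.1) and Npy (4.9 to 45) CPM per kb overlapped. The ratio of Ppy to Pyy per kb was 0.0946 to 0.123 in controls and 0.0494 to 0.0768 in mutants, and it was 3.08 to 4.77 in the 9 islet libraries, where Ppy was the more abundant. Embryonic and islet libraries come from different tissues and separate tables, so this is a description of levels within each library.

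Among other genes of the pathway, none of the 7 peptide processing genes was called at E15.5 by either tool. Cpe, which trims the ends of prohormones, had a log2 fold change of 0.00 (SE 0.20) and Pam, which amidates peptides such as those of the Npy family, -0.04 (SE 0.13). Of the 5 receptors listed, Npy1r (-0.42, SE 0.35) and Npy2r (-1.68, SE 0.99) passed the count filter, and neither was called. Of 11 beta cell markers edgeR called 0, while 7 were lower and 0 higher at an unadjusted p under 0.05. DESeq2 called 3 of them lower, Ins2 at -4.52, Ins1 at -3.17 and Glp1r, the receptor of GLP-1, at -3.10, whereas Pdx1 was at -0.07, Nkx6-1 at -0.24 and Ucn3 at 0.31. DESeq2 also called Gip, an incretin hormone, at -2.67. Over the 6 enteroendocrine genes listed, Gip among them, the median edgeR log2 fold change was 0.26. Of these 6, 2 were lower and 0 higher at an unadjusted edgeR p under 0.05. In these bulk samples fewer cells of a type and less RNA per cell cannot be told apart.

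In 8-week islets with the SD mutation, none of the 4 members was called by edgeR, against 7.94% of all 15413 genes tested. Npy was at 20.3 and 26.8 CPM in controls and 10.7, 18.3 and 8.25 CPM in betaSDmut. Both controls lay above all 3 mutants. The edgeR log2 fold change was -0.94 (SE 0.34, unadjusted p 0.0366) and missed the threshold (adjusted p 0.163). DESeq2 gave -0.93 (adjusted p 0.0584). Groups of this size do not overlap for 45.9% of genes tested, and 2 of the 4 members, Npy and Pyy, were among those. The 8 neuron markers, with Th among them, summed to 262, 228 and 207 CPM in betaSDmut against 106 and 115 in controls. Of the 7 tested only Th was called, at 2.15, and their median log2 fold change was -0.62, so the sum and the median differ in direction. Their part in the Npy values was not tested.

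Pyy was at 1040 and 963 CPM in controls and 1150, 1160 and 1210 CPM in betaSDmut. The values were tight within each group, and the log2 fold change was 0.21 (SE 0.09, adjusted p 0.206 in edgeR). DESeq2, which called 13.2% of all genes, called Pyy (0.22, adjusted p 0.0282) and no longer did without betaSDmut 3 (0.20, adjusted p 0.246). Ppy was at 3690 and 3400 CPM in controls and 3990, 2820 and 4230 CPM in betaSDmut, with the controls inside the range of the mutants. Its log2 fold change was 0.04 with an SE of 0.19 (adjusted p 0.911).

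Ghrl in 8-week islets was low, at 1.38 and 1.9 CPM in controls and 0.332, 0.412 and 2.27 CPM in betaSDmut. Mutants 1 and 2 lay below both controls and mutant 3 above both, and the log2 fold change was -0.70 (SE 0.86, adjusted p 0.651). Without betaSDmut 3 it was -2.13 and was called by edgeR (adjusted p 0.0335). The same library differed from mutants 1 and 2 in acinar transcripts, where it lay between the controls. In immune transcripts it stood apart from all other libraries of this age. Its 14 acinar markers summed to 11100 CPM, against 972 and 2080 in mutants 1 and 2 and 13500 and 8180 in controls, with none of the markers at 0 in any library. Its 3 immune markers summed to 65.8 CPM against 4.98 to 8.36 in the other 4 libraries of this age. With the acinar level as a covariate the Ghrl log2 fold change was 0.17 (adjusted p 0.848). The part of exocrine tissue in the Ghrl values was not tested otherwise. The authors' deposited table of betaSDmut against controls marks none of Npy (-1.03), Pyy (0.21) and Ppy (0.01) as changed, where it marks 8.43% of 12989 genes, and does not list Ghrl. The authors' deposited table of 3 groups gives betaSDmut values of -0.22 for Npy, 0.32 for Pyy, 0.22 for Ppy and -2.22 for Ghrl, none marked as changed, where it marks 17.9% of 9971 genes. Which control libraries lie behind these values is not given in the sources used here, so they may not be age-matched.

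Mboat4 was at 0.095 to 0.329 CPM in 8-week islets and was not tested. Ghsr, known as a receptor of delta cells in the islet, was at 7.51 and 6.62 CPM in controls and 8.51 to 9.97 in betaSDmut (log2 fold change 0.40, SE 0.13, adjusted p 0.129). Of the 7 processing genes only Pam was called, at 0.93 (SE 0.15, adjusted p 0.0218), while Pcsk2, a prohormone convertase, was at -0.46 (adjusted p 0.0516 in edgeR, 2.25e-05 in DESeq2). Of the 8 PP and epsilon cell markers, 6 were tested and Frzb was the only one called, at -0.49 (SE 0.09, adjusted p 0.0323). Of 11 beta cell markers, edgeR called 4 lower and 0 higher. At an unadjusted p under 0.05, 5 were lower and 2 higher. The called genes were Slc2a2, the glucose transporter (-0.89), Nkx6-1 (-0.91), Glp1r (-1.20) and the zinc transporter Slc30a8 (-1.12).

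In 4-week islets labelled betaKO, all 4 members were above both controls, and edgeR called 2 of them, Npy and Ppy, against 1.56% of 14942 genes tested. Groups of 2 against 2 do not overlap for 47.5% of all genes, so the lack of overlap alone says little. Npy was at 6.76 and 9.73 CPM in controls and 106 and 105 CPM in betaKO, and rose by 3.69 on the log2 scale (SE 0.19, adjusted p 0.0147), a fold of 12.9. It ranked 3 among all genes by p-value. The call held in each fit without 1 library (adjusted p 0.00449 to 0.0288). Dbh was near the limit of detection, at 0.119 to 0.178 CPM in all 4 libraries, where 3 counts correspond to 0.0889 to 0.234 CPM. The 8 neuron markers summed to 102 and 117 CPM in betaKO against 125 and 135 in controls. The sum and the single genes differ in direction here too, with a median log2 fold change of 1.27 over the 7 tested, 3 of them higher and 1 (Th) lower at an unadjusted p under 0.05, and Stmn2 at 14.4 and 21.1 CPM against 9.22 and 5.16. Their part in the Npy rise was not tested.

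Ppy was at 2570 and 2730 CPM in controls and 8220 and 6600 CPM in betaKO, and rose by 1.47 (SE 0.14, adjusted p 0.0255), a fold of 2.78. Without control 1 or control 2 the edgeR call was lost, at 1.44 (adjusted p 0.169) and 1.52 (adjusted p 0.193). Pyy was at 901 and 809 CPM in controls and 2660 and 1750 CPM in betaKO (log2 fold change 1.36, SE 0.22, adjusted p 0.0722). Ghrl was at 5.75 and 6.47 CPM in controls and 26.9 and 15.47 CPM in betaKO (log2 fold change 1.80, SE 0.29, adjusted p 0.0681). For each of these 3 genes betaKO 1 was the higher of the betaKO libraries, whereas for Npy both were alike. DESeq2, which called 5.15% of all genes, called all 4 members, though not Ghrl without betaKO 1 (1.34, adjusted p 0.111). In edgeR fits without betaKO 1 or betaKO 2, where the lone betaKO library is assumed to vary like the controls, Pyy (adjusted p 0.0239 and 0.0287) and Ghrl (adjusted p 0.04 and 0.0251) were called. The authors' deposited table of 3 groups marks all 4 as changed in betaKO, where it marks 4.47% of 9971 genes. Its log2 values are 3.00 for Npy, 1.23 for Pyy, 1.27 for Ppy and 2.68 for Ghrl. That table names the same control group for both mutants, and which libraries that group held is not given in the sources used here. Its values may thus not be set against age-matched controls, unlike the edgeR values above. Its direct comparison of betaKO with betaSDmut, which does not use each age's own controls, also marks all 4, at 3.23 for Npy, 0.91 for Pyy, 1.06 for Ppy and 4.90 for Ghrl.

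The betaKO libraries also held more acinar transcript, with summed markers of 41800 and 14500 CPM against 11200 and 5990 in controls. With the acinar level as a covariate, which leaves 1 residual degree of freedom and 0 calls over all genes, the log2 fold changes were 3.87 for Npy (adjusted p 0.0849), 1.27 for Ppy (adjusted p 0.113), 0.82 for Pyy (adjusted p 0.161) and 1.21 for Ghrl (adjusted p 0.269). Beta cell markers summed to 180000 and 168000 CPM in betaKO against 211000 and 215000 in controls, and alpha cell markers to 65100 and 53200 against 30800 and 26400. The 3 delta cell markers summed to 6440 and 5130 CPM against 3420 and 1880. Their sum was also higher at 8 weeks, at 4930, 6490 and 5140 CPM in betaSDmut against 3070 and 2070 in controls. At each age only 1 of the 3 had an unadjusted edgeR p under 0.05. Their median log2 fold change was 0.97 at 4 weeks and 0.63 at 8 weeks. Whether the 4 hormones moved apart from the makeup of the betaKO libraries was not tested. In a single draw of data simulated from the 4-week libraries, 23.7% of edgeR's calls were false at a nominal 5%, a limit on single calls at this size.

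Ghsr rose in betaKO by 1.17 (SE 0.16, adjusted p 0.0432), from 5.66 and 6.23 CPM to 13.5 and 13.4. Mboat4 was at 0.237 and 0.0593 CPM in controls and 2.37 and 1.33 CPM in betaKO (log2 fold change 3.42, SE 0.69, adjusted p 0.0981 in edgeR, 0.0195 in DESeq2). The value of 0.0593 CPM in control 2 is a level of 1 count, so the size of this fold is uncertain. Of 7 PP and epsilon cell markers tested, Ppy and Tspan8, a membrane protein, were called higher and none lower. Tspan8 rose by 1.28 (SE 0.10, adjusted p 0.0205). Of the 7 processing genes Pam alone was called, at 0.73 (SE 0.11, adjusted p 0.0468). The alpha cell genes Gcg (1.06) and Ttr (0.76) and the retinol carrier Rbp4 (2.89), listed with delta cells, also rose, while Ucn3, a marker of mature beta cells, fell by 1.41 and Glp1r fell by 0.95 on the log2 scale. Ucn3 and Glp1r were the 2 of 11 beta cell markers that edgeR called lower, with 0 called higher. At an unadjusted p under 0.05, 7 of the 11 were lower and 1 was higher. Th, which makes catecholamines and is also expressed in some beta cells, fell by 1.90. Npy1r, the only listed receptor of the Npy family that passed the count filter in islets, was at 1.69 and 2.43 CPM in controls and 1.96 and 2.5 CPM in betaKO.

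**Figure D3:**
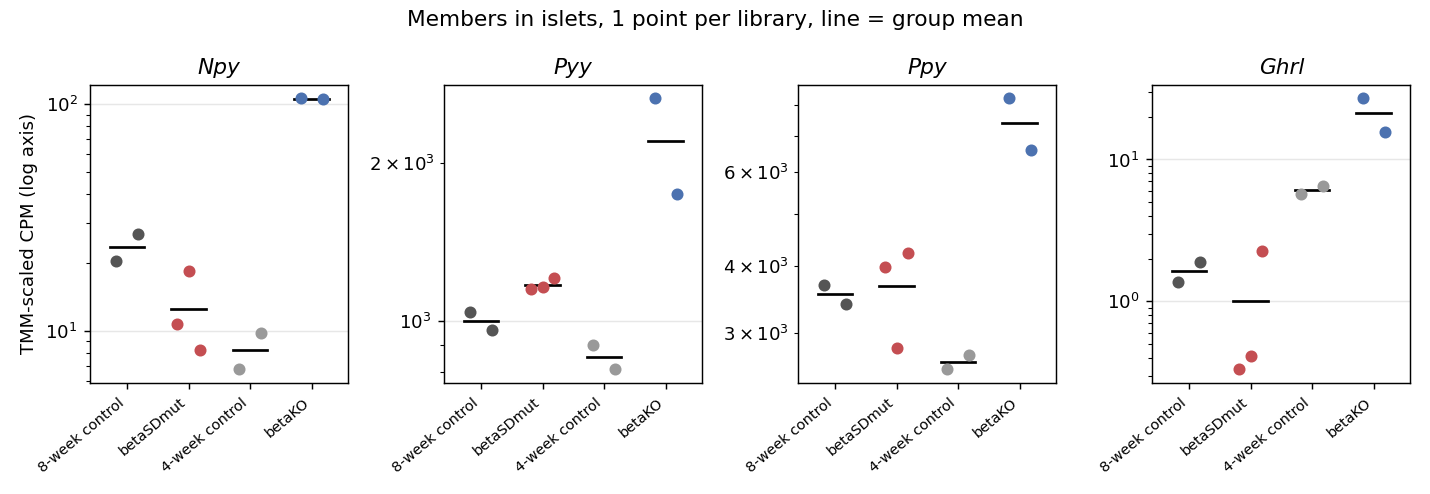
TMM-scaled CPM (log axis) of the 4 genes in islets, with each library as a point and the group mean as a line. In betaKO all 4 genes lie above both 4-week controls, from 105 and 106 against 6.76 and 9.73 for Npy, while betaSDmut libraries lie below the 8-week controls for Npy, above them for Pyy and across them for Ppy and Ghrl.

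The effects of betaSDmut and betaKO, each against its own controls, were then compared in 1 model of all 9 islet libraries. The difference was called for Npy and Ppy, 2 of the 4 members, against 1.21% of 15995 genes. For Npy the betaSDmut effect was 4.62 lower than the betaKO effect on the log2 scale (-4.62, SE 0.49, adjusted p 0.0113 in edgeR). All 3 betaSDmut libraries were below their controls and both betaKO libraries above theirs. For Ppy the difference was -1.43 (SE 0.26, adjusted p 0.0468), close to the threshold. For Pyy it was -1.14 (SE 0.24, adjusted p 0.0693) and for Ghrl -2.48 (SE 1.01, adjusted p 0.337). Without betaSDmut 3 the Ghrl difference was -3.92 and was called (adjusted p 0.0155), and with the acinar level as a covariate it was -0.69 (adjusted p 0.705). DESeq2, with 4.18% of genes called, called the difference for Npy, Pyy and Ppy. Leaving out 4-week control 1 or 2 or 8-week control 2 ended the edgeR call for Npy (adjusted p 0.0636, 0.0532 and 0.0856), with values of -4.36 to -4.89. The Ppy call held only without betaSDmut 1 or 3 among the 9 such fits. The Pyy difference was called without betaKO 1 (-0.80, adjusted p 0.0498) or betaKO 2 (-1.41, adjusted p 0.0273). Mutation and age cannot be told apart in this comparison.

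The control islets themselves stood at different levels of the 4 genes at 4 and 8 weeks. Npy was at 6.76 and 9.73 CPM at 4 weeks and 20.3 and 26.8 at 8 weeks, and Ghrl at 5.75 and 6.47 against 1.38 and 1.9. Pyy was at 901 and 809 CPM at 4 weeks against 1040 and 963 at 8 weeks, and Ppy at 2570 and 2730 against 3690 and 3400. This difference was not tested, since age and the series of libraries cannot be told apart. The molecule field of the 4-week samples reads genomic DNA, whereas their values are counts per gene with summed beta cell markers of 168000 to 215000 CPM, and they were used as RNA libraries.

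Compared per length of exon, Ppy was highest in every islet library (5140 to 16400 CPM per kb), followed by Pyy (1280 to 4220), Npy (11.9 to 187) and Ghrl (0.308 to 25). The authors' deposited FPKM values gave the same order. That file lists Ins2 at 0 in all 9 islet libraries, Ins1 at 0 in 8 of them and Gcg at 0 in betaKO 2, against 108000 to 167000, 50700 to 67500 and 50400 CPM there, so its values are not reliable for every gene, and for Ghrl they lie further above the CPM per kb than for Npy. In 8-week controls the deposited values were 15300 and 14200 FPKM for Ppy, 3610 and 3380 for Pyy, 69.9 and 91.1 for Npy and 4.2 and 6.27 for Ghrl. Libraries labelled betaKO had 30400 and 26000 FPKM of Ppy, 8600 and 6260 of Pyy, 326 and 347 of Npy and 89.8 and 59.8 of Ghrl. The order held in all 9 libraries, and Npy and Ghrl lay closest in 4-week control 1, at 25.1 and 22.1 FPKM.

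**Figure D4:**
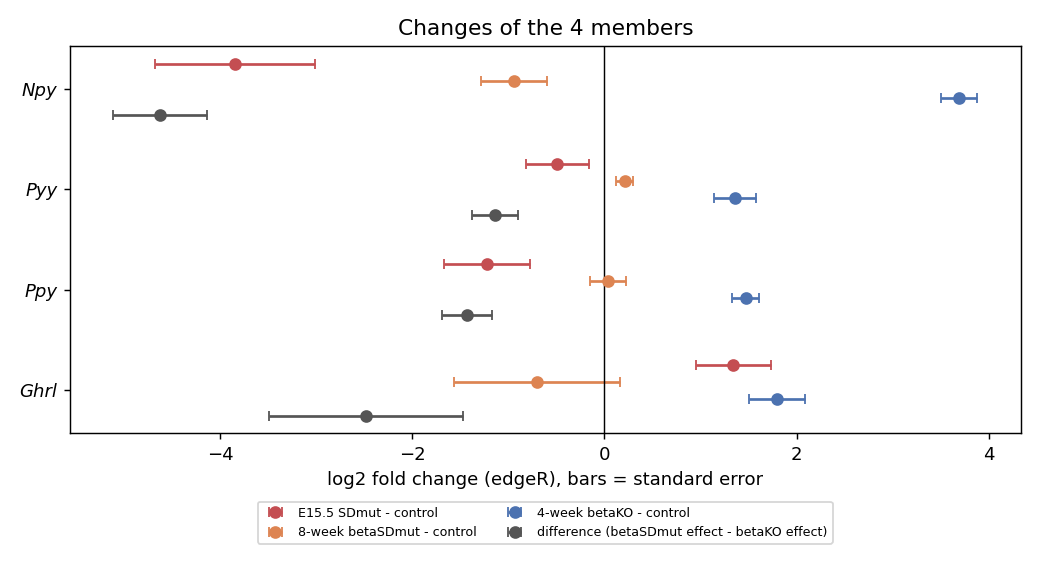
edgeR log2 fold changes of the 4 genes with standard errors as bars, for E15.5 SDmut, 8-week betaSDmut and 4-week betaKO, each against its controls, and for the difference of the islet effects. Npy ran from -3.84 in the embryo through -0.94 to 3.69, and Ghrl was above 0 in the embryo and in betaKO.

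In motor neuron progenitors the 4 genes were at or near the limit of detection. Npy had 0 to 8 counts per library, Pyy 0 to 3 and Ppy 0 to 1, and none of the 3 passed the count filter in any comparison. A floor of 3 counts corresponds to 0.0625 to 0.176 CPM in these libraries. Npy had more than 3 counts only in pMN 3, with 8, and iNkx2.2 3, with 4. Ghrl had 7 to 19 counts and passed the filter, at 0.438, 1.11 and 0.297 CPM in pMN, 0.354, 0.366 and 0.303 in iNkx2.2 and 0.666 and 0.545 in iSDmut. The pMN libraries enclosed all the others. Its log2 fold change was -0.85 (SE 0.52, edgeR adjusted p 0.346) for iNkx2.2 against pMN, -0.02 (SE 0.58, adjusted p 0.988) for iSDmut against pMN and 0.83 (SE 0.57, adjusted p 0.594) for iSDmut against iNkx2.2. Without pMN 2, which had the highest value, the first of these was -0.12 (adjusted p 0.938). None of these was called, where 9.49%, 3.54% and 0.281% of 15653 genes were. In the edgeR fits that add the replicate block, Ghrl was at -0.79 (adjusted p 0.244), -0.23 (adjusted p 0.799) and 0.56 (adjusted p 0.618). With it, 4629, 2626 and 528 genes were called in place of 1486, 554 and 44. The block joins same-numbered libraries of all 3 groups, though only the numbers of pMN and iNkx2.2 were taken as pairs. At this depth no difference in the 4 genes was detectable in progenitors, whereas Pax6, a regulator of motor neuron progenitors, fell by 5.54 on the log2 scale in iNkx2.2 against pMN (SE 0.38, edgeR adjusted p 0.000102).

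Across libraries, Pyy and Ppy followed each other, with a Pearson correlation of log2 CPM of 0.92 over the 7 E15.5 libraries and 0.94 over the 9 islet libraries. Npy and Ghrl were at -0.76 over the E15.5 libraries and 0.56 over the islet libraries. These values describe libraries that share groups and tissue makeup and carry no test. Of all genes with a mean log2 CPM of at least 2, the pattern most like that of Pyy in the embryo was that of Iapp, the amyloid peptide of beta cells (0.995), followed by Cacul1 (0.987) and Ptprn2 (0.986). Those most like Npy were Lrp8 (0.98), March4 (0.969) and Urb2 (0.963), those most like Ppy were Rab37 (0.981), 1700086L19Rik (0.972) and Dbpht2 (0.971), and those most like Ghrl were Plp2, Mdh1 and Ndufc1 (0.973 each). In islets Ppy was most like Ptprk (0.953), Pyy (0.938) and Tspan8 (0.933), Pyy was most like Dpp10 (0.976), Fh1 (0.971) and Ptprk (0.969), and Npy was most like 2310009A05Rik (0.957), Cldn6 (0.956) and Spon1 (0.948). Ghrl in islets was most like Prss1, a trypsinogen of acinar cells (0.966), followed by Rcc1 (0.948) and Tmem223 (0.941).

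**Figure D5:**
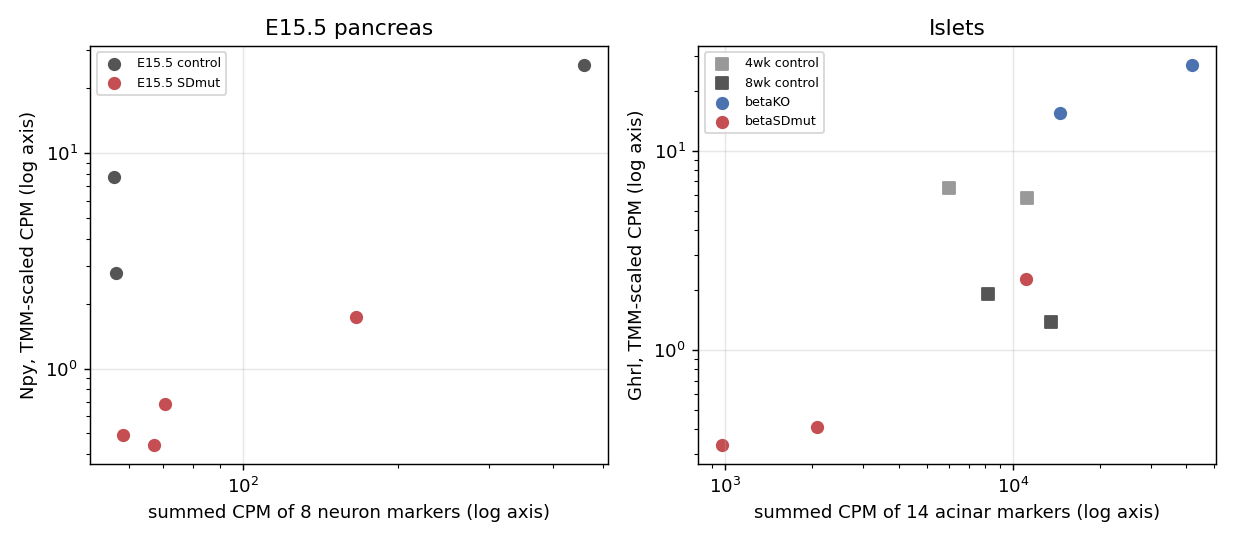
Left, Npy against the summed CPM of 8 neuron markers in the 7 E15.5 libraries. Right, Ghrl against the summed CPM of 14 acinar markers in the 9 islet libraries. Both panels have log axes and each point is a library. On the left the control at 25.5 CPM of Npy has the highest neuron sum, 460, and the other 2 controls lie above the mutants at a like neuron sum. On the right betaSDmut 1 and 2 have the lowest values of both measures.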

How the data were processed

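The members and the gene lists were chosen with earlier results of these data known. Genes are named by rule: the 4 members, the receptors, Mboat4 and processing genes, other listed genes with an adjusted p under 0.05, Nkx2-2, and the 3 genes most like each member. DESeq2 calls among listed E15.5 genes, the Dbh and Stmn2 levels, and Pcsk2 were named after their values were seen. Some listed genes that passed the threshold are not reported here. STAR, Cufflinks, DESeq2, edgeR 3.20.9, limma 3.34.9 and bedtools 2.17.0, with mm10, are named in the submitters' processing notes, with no role or settings. The read counts per gene were deposited by the authors without normalization, and FPKM values of islets and progenitors were deposited beside them. The authors' deposited tables give log2 fold changes, p-values and calls (a score of 1, 0 or -1) from DESeq2 for the embryo and from edgeR and limma for islets, and log2 CPM at ChIP-seq sites, per the deposited description. The rule behind the final sites is not given in the sources used here.

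The main test was the quasi-likelihood test of edgeR 4.0.16, run in R 4.3.3 with TMM factors, the filterByExpr filter and robust dispersion, and p-values were adjusted over all genes by Benjamini-Hochberg (threshold 0.05). Standard errors are the absolute log2 fold change over the square root of F. Islet comparisons used age-matched libraries, the difference all 9, and progenitors 1 model of 3 groups. Alternatives were DESeq2 1.42.0, RLE factors, total library size, no filter, a filter of 1 CPM, a block, an acinar covariate and leaving out libraries. On simulated counts, fits recovered 65.3% of genes changed by a fold of 4 in the E15.5 comparison (18723 genes), 89.7% at 8 weeks (15413 genes), 87.8% at 4 weeks (14942 genes) and 62.2% for the difference (15995 genes). False calls were 8.89%, 10.3%, 23.7% and 10.4% of calls, above the nominal share. Each comparison was simulated in a single draw, so the spread of these shares is not known. No 2 libraries held identical counts. Deviations of same-numbered pMN and iNkx2.2 libraries, numbered in the titles, correlated at 0.561, 0.548 and 0.584, so those numbers were taken as pairs. Those of iSDmut libraries correlated at 0.376 and 0.054 with pMN and 0.334 and 0.108 with iNkx2.2, and were not taken as pairs. The replicate block in progenitors nevertheless used the numbers of all 3 groups, so its iSDmut values rest on that pairing too. The main progenitor fit has no block, and the values with it stand beside the results.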

Additional observations from a re-analysis of the deposited data

Results flagged for a closer look

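The effect of betaSDmut and the effect of betaKO, each against its own controls, differed for 2 of the 4 genes by the interaction test in edgeR, against 1.21% of 15995 genes. For Npy the difference was -4.62 on the log2 scale (adjusted p 0.0113), from a lower level in 3 of 3 betaSDmut libraries and a higher level in 2 of 2 betaKO libraries. For Ppy it was -1.43 (adjusted p 0.0468), with betaKO libraries at 8220 and 6600 CPM against 2570 and 2730, and betaSDmut libraries on both sides of their controls. Leaving out 1 library ended the Npy call in 3 of 9 fits and the Ppy call in 7 of 9. Age and mutation cannot be told apart in either. In the group of 4 E15.5 mutants, the only group large enough to be examined for a single library far from the others, none of the 4 genes passed Dixon's critical value for 4 samples, and the widest gap, that of Npy in mutant 2, was just under it at 0.809 of the group's range.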

How the results depend on the processing

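Values here are log2 fold changes of the comparisons above, and adjusted p-values are in parentheses. At E15.5 every alternative run kept the direction of all 4 genes. Npy was called with DESeq2 (-3.85), with DESeq2 without both libraries with muscle transcripts (-4.93) and with DESeq2 without both with neuronal transcripts (-3.28), and in no edgeR fit (0.248 to 1). At 8 weeks DESeq2 called Pyy (0.22). Ppy changed sign with the replicate block (-0.09), with DESeq2 without betaSDmut 3 (-0.06), and over fits without 1 library, which ran from -0.06 to 0.21. No 8-week control is numbered 3, so with the replicate block betaSDmut 3 does not inform the 8-week comparison or the difference. Ghrl was 0.17 with the acinar covariate and -2.14 with DESeq2 without betaSDmut 3, and ran from -2.13 to -0.29 without 1 library. At 4 weeks the acinar covariate ended the calls of Npy (3.87) and Ppy (1.27). Pyy was called with DESeq2 (1.36), total library size (1.26), the replicate block (1.33) and DESeq2 without betaKO 1 (1.03), and Ghrl with DESeq2 (1.80). Without 1 library the ranges were 1.03 to 1.63 for Pyy, 1.31 to 1.62 for Ppy and 1.34 to 2.14 for Ghrl. For the difference, Pyy was called with DESeq2 (-1.15) and with DESeq2 without betaSDmut 3 (-1.16), the Ppy call was lost with the replicate block (-1.55) and the acinar covariate (-1.21), and Ghrl was called with DESeq2 without betaSDmut 3 (-3.94). Without 1 library the ranges were -5.01 to -4.36 for Npy, -1.41 to -0.80 for Pyy, -1.58 to -1.26 for Ppy and -3.92 to -2.03 for Ghrl. Ghrl in iNkx2.2 against pMN ran from -1.21 to -0.12 without 1 library. For iSDmut against pMN, Ghrl was 0.06 with total library size and 0.00 without a filter, and ran from -0.38 to 0.71 without 1 library. The cause of these changes was not tested. Counts over all genes moved by more than 1.5 times. At E15.5 they were 1 with edgeR, 25 with DESeq2 (43 without both muscle libraries, 27 without both neuronal libraries, 18 without control 2), 2 with total library size, 0 with the block by title number or without both neuronal libraries, and 0 to 2 without 1 library, with 475 genes at an unadjusted p under 0.05. At 8 weeks they were 1224 against 2041 with DESeq2, 757 with the replicate block and 37 to 2765 without 1 library, with 37, 45, 384 and 2765 without control 2, control 1, betaSDmut 2 and betaSDmut 1. At 4 weeks they were 233 against 770 with DESeq2 (601 without betaKO 1), 127 with total library size, 372 without a filter, 0 with the acinar covariate (2034 at an unadjusted p under 0.05) and 4 to 478 without 1 library, with 4, 15, 61 and 478 without control 1, control 2, betaKO 2 and betaKO 1. For the difference they were 194 against 653 with DESeq2 (632 without betaSDmut 3), 87 with the replicate block, 121 with the acinar covariate and 0 to 343 without 1 library, with 0 without 8-week control 2 (1456 at an unadjusted p under 0.05). For iNkx2.2 against pMN they were 1486 against 2271 with DESeq2, 4629 with the replicate block and 412 to 1604 without 1 library. For iSDmut against pMN they were 554 against 1382, 2626, 295 with only the compared groups and 171 to 471, and against iNkx2.2 44 against 473, 528, 145 without a filter, 13 and 1 to 467. Where a fit leaves 1 library in an arm, that library is assumed to vary like the others. The replicate block changed no other call of the 4 genes, and islet numbers were not taken as pairs (-0.126 to -0.039). With 2 or 3 libraries in an arm and 7 to 19 counts of Ghrl in progenitors, small differences were beyond these data.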
